A study of Homo sapiens with 6 samples.

Results

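The UBE2 genes encode ubiquitin-conjugating enzymes and were examined as a family in clones of MiaPaCa2, a human pancreatic ductal adenocarcinoma line. The members were the rows of the deposited count table with a symbol of UBE2 followed by 1 or 2 letters and at most 1 digit, 36 of 26334 symbols. Messenger RNA had been profiled by SMART-Seq2, an oligo(dT)-primed and PCR-amplified method without strand information, from 2000 lysed cells per library. The 6 libraries came from 3 ZEB1-KO clones, in which the zinc-finger repressor ZEB1 had been deleted with CRISPR-Cas9, and from 3 WT clones. Both groups were clonal lines grown in medium with 10% fetal bovine serum, and the labels describe the same isolation for both, by sorting green fluorescent cells after electroporation of a plasmid carrying Cas9 and GFP. Every library is 1 clone, so differences between clones and differences between genotypes share the same 3 against 3 samples. Symbols alone defined the members. The family and its comparison of ZEB1-KO with WT were nevertheless picked with earlier results of these libraries known, so fold changes and adjusted p-values are given as a description and not as independent evidence.

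Ubiquitin is passed along a chain of enzymes. An E1 enzyme activates it, an E2 carries it on an active-site cysteine, and an E3 ligase brings the loaded E2 to the substrate. The E2 largely sets which kind of chain is built, and a few members of the family carry NEDD8, ISG15 or another ubiquitin-like protein in place of ubiquitin. In tumour cells the E2s of mitosis and of DNA repair are among the best studied.

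Total counts lay between 18909305 and 36798770 in the ZEB1-KO libraries and between 26242238 and 42876693 in the WT libraries. A floor of 3 counts corresponded to 0.0687 to 0.150 CPM and covers counting error only. CPM, the count relative to the TMM-scaled library size, is the unit used for 1 gene between libraries. ZEB1 itself had 67, 140 and 369 counts in ZEB1-KO replicates 1, 2 and 3, against 1486, 1011 and 830 counts in WT replicates 1, 2 and 3. No ZEB1-KO library was at 0, and replicate 3 had the most. The log2 fold change of ZEB1 was -2.43 ± 0.49 (SE), adjusted p = 0.0930. Of the epithelial markers, KRT8, KRT18 and KRT19 were abundant in all libraries, whereas EPCAM had at most 2 and CDH1 at most 4 counts in any library. The 9 epithelial and ductal markers summed to 4120 to 5350 CPM in ZEB1-KO libraries and 2190 to 3300 CPM in WT libraries, and the 2 mesenchymal markers to 1350 to 2180 CPM in ZEB1-KO libraries and 3080 to 3820 CPM in WT libraries. KRT8 and KRT18 made up most of the first sum and VIM most of the second, whereas SOX9, on the first list, had 25.6, 58.2 and 30.5 CPM in the ZEB1-KO libraries, against 34.8, 106 and 99.4 CPM in the WT libraries. The part of these marker values in the UBE2 values was not tested. Markers of blood, endothelial, fibroblast and acinar or islet cells summed to at most 6.76 CPM per list in any library, most of it CD68; 3 of 5 blood, 2 of 4 fibroblast and 2 of 5 acinar or islet markers were at 0 everywhere.

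Of the 36 members, 33 passed the filter on low counts and were tested. UBE2QL1 had 0 counts in every library, which allows up to 0.150 CPM in the shallowest one. UBE2NL, an intronless gene of the UBE2N type, had 4, 2 and 2 counts in ZEB1-KO replicates 1, 2 and 3, against 4, 4 and 0 counts in WT replicates 1, 2 and 3. The symbol UBE2MP1, a pseudogene of UBE2M, had 1 count in ZEB1-KO replicate 2 and 0 counts elsewhere. These 3 members lay at or near the floor and no difference could be detected for them.

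Levels between genes were compared as deposited TPM (scaled by the authors for transcript length and to one total per library), which cover the same 33 members. Averaged over the 6 libraries, 9 members had at least 100 TPM, 19 had 10 to 100 TPM and 5 had less than 10 TPM. UBE2C was the most abundant, at 851 ± 332 TPM in ZEB1-KO clones and 989 ± 175 TPM in WT clones (SD, n = 3 each), and made up 23.0% to 35.2% of the summed TPM of the family in ZEB1-KO libraries and 29.7% to 36.4% in WT libraries. UBE2V2, UBE2T and UBE2L3 followed, with means over all libraries of 303, 241 and 241 TPM. The values of these 3 overlap between libraries, so their order is not fixed by these data. UBE2E3 came next, and it was among the 5 most abundant members in each WT library and in no ZEB1-KO library. The whole family summed to 2299, 2796 and 3387 TPM in ZEB1-KO replicates 1, 2 and 3, against 3192, 2731 and 3331 TPM in WT replicates 1, 2 and 3, and these ranges overlap.

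**Figure D1:**
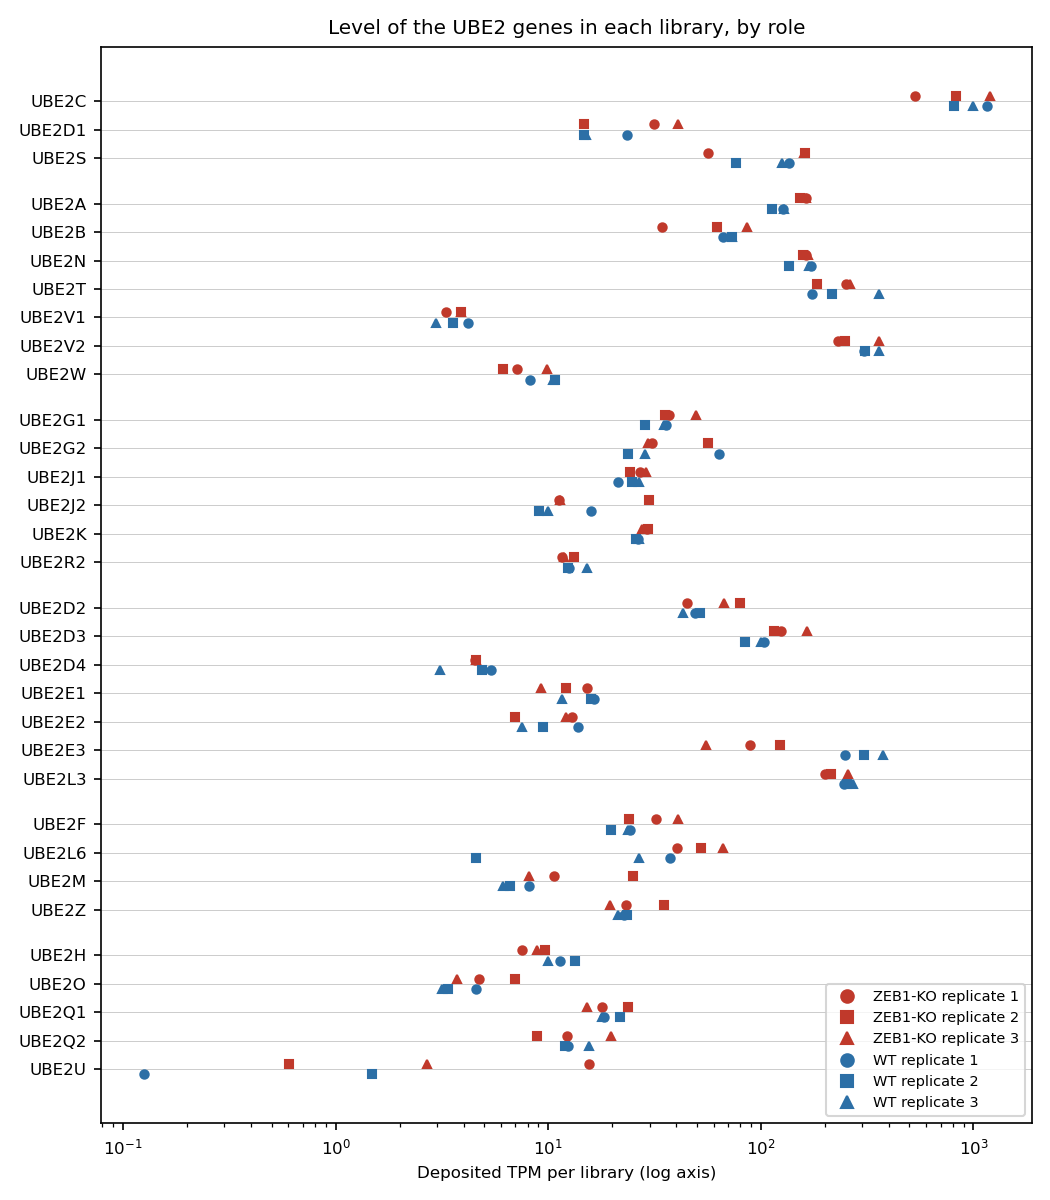
Deposited TPM on a log axis for the UBE2 genes described, grouped by role; each point is 1 library, ZEB1-KO above WT, with the replicate given by the symbol. Levels span from UBE2C at the top of the axis to UBE2U at the bottom, UBE2E3 is the gene whose groups lie farthest apart without overlap, and UBE2U in WT replicate 3 is at 0 and not drawn.

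The comparison of ZEB1-KO with WT clones asks which transcripts differ in level where ZEB1 is deleted. In edgeR's quasi-likelihood test 0 of 33 members passed an adjusted p of 0.05 (Benjamini-Hochberg over all 13659 genes tested), against 0.176% of all genes, or 24 genes (0.117% higher and 0.0586% lower in ZEB1-KO clones), and 1 member, UBE2E3, had an adjusted p below 0.1, against 1.79% of all genes. At an unadjusted p below 0.05 there were 3 members, of which 2 were lower in ZEB1-KO clones, UBE2E3 and UBE2H, and 1 was higher, where 8.04% of all genes were lower and 9.64% higher. With the likelihood ratio test of edgeR 2 members passed, UBE2E3 among the lower genes and 1 among the higher (4.52% of all genes, 2.75% higher and 1.76% lower), and DESeq2 likewise called UBE2E3 and 1 higher member (7.24% of genes with an adjusted p, 4.42% higher and 2.82% lower). In the authors' deposited table, which covers 11013 genes and calls 4.75% of them (2.82% higher and 1.92% lower), UBE2E3 had a log2 fold change of -2.10, adjusted p = 2.36e-06. It was the 1 member that passed 0.05 there on the lower side, and 1 member passed on the higher side. The median log2 fold change of the 33 members was -0.18, beside -0.0082 over all genes tested, with 12 members above 0 and 21 below, against 49.4% and 50.6% of all genes (scaled by library size alone 16 members lay above 0, and on the TPM scale 21). Past 2-fold lay 3 members on the higher side, UBE2U and UBE2L6 among them (7.12% of all genes), and 1 on the lower side, UBE2E3 (4.90%). Their median absolute log2 fold change was 0.30, beside 0.38 over all genes. The 95% interval of the fold change stayed within 2-fold in either direction for 18 members, among them UBE2A, UBE2K, UBE2N, UBE2L3 and UBE2D3. Groups did not overlap for 5 members that lay lower in all ZEB1-KO libraries (UBE2E3, UBE2H, UBE2L3, UBE2N and UBE2R2), where 11.7% of all genes did so, and for 2 that lay higher (UBE2L6 among them), where 11.9% did. These counts are in CPM, and in TPM the groups of UBE2L3, UBE2N and UBE2R2 overlapped. Conversely, UBE2A, UBE2D3 and UBE2K lay higher in all ZEB1-KO libraries in TPM, although their groups overlapped in CPM. The share of all genes separated in TPM was not counted. On log2(TPM + 1), at a mean TPM of at least 1, the median log2 fold change of all genes was 0.23.

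**Figure D2:**
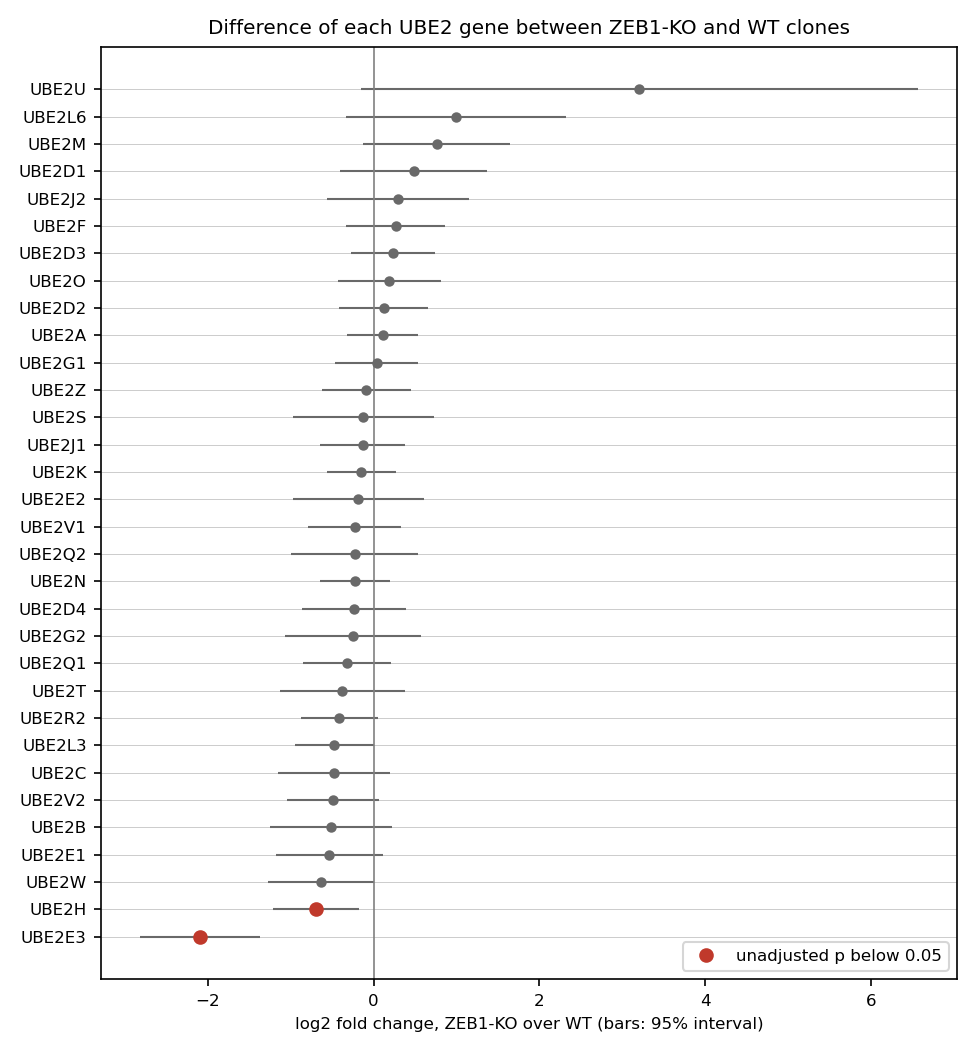
Log2 fold change of ZEB1-KO over WT for each tested UBE2 gene, with its 95% interval from the quasi-likelihood fit. UBE2E3 at -2.09 stands lowest and UBE2H at -0.69 also has an interval that excludes 0, while UBE2U at 3.21 has an interval from -0.15 to 6.57.

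UBE2E3 differed most in this comparison among the abundant members. It belongs to the UBE2E group, E2s with an extended N-terminus that work with many RING ligases. Its level was 115, 140.5 and 70.2 CPM in ZEB1-KO replicates 1, 2 and 3, against 336, 493 and 560.3 CPM in WT replicates 1, 2 and 3. Every ZEB1-KO clone thus lay below every WT clone, and the lowest WT value was more than double the highest ZEB1-KO value. The means were 109 ± 35.6 CPM in ZEB1-KO clones and 463 ± 115 CPM in WT clones (SD, n = 3 each), at a log2 fold change of -2.09 ± 0.32 (SE) and adjusted p = 0.0605, a 4.26-fold lower level. The adjusted p missed 0.05 in this test and passed it in 4 of 18 alternatives, with a lowest value of 3.01e-07 from DESeq2 and a highest of 0.211 without WT replicate 3. Leaving out 1 library at a time gave log2 fold changes between -2.32 and -1.85, all negative and with 0 of 6 fits past 0.05. Whether fewer cells carried the transcript or each cell carried less of it cannot be told apart in these bulk libraries.

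The other UBE2E genes were far less abundant. UBE2E3 made up 76.0%, 86.6% and 72.1% of the summed UBE2E TPM in ZEB1-KO replicates 1, 2 and 3, against 89.2%, 92.3% and 95.1% in WT replicates 1, 2 and 3. The UBE2E sum was 117, 142.7 and 76.9 TPM in the ZEB1-KO libraries, against 278, 330.4 and 393 TPM in the WT libraries, and the groups did not overlap in share or sum. UBE2E1 had 18.1, 12.7 and 10.8 CPM in the ZEB1-KO libraries, against 20.5, 23.8 and 16.0 CPM in the WT libraries, at a log2 fold change of -0.53 ± 0.28 (SE) and adjusted p = 0.355. UBE2E2 had a log2 fold change of -0.18, adjusted p = 0.814, and its groups overlapped. The groups of UBE2E1 overlapped as well.

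Genes around UBE2E3 on chromosome 2 were looked at for a difference of the locus as a whole. The nearest tested gene on one side with more than 1 CPM, the splicing factor gene CWC22, had a log2 fold change of -0.064, and SSFA2 on the other side had -0.94, adjusted p = 0.351. On the CWC22 side, SCHLAP1 lay nearer at -0.26 (mean 0.68 CPM in ZEB1-KO clones and 0.80 CPM in WT clones). SESTD1 and TTN, beyond CWC22, had 1.46 and -0.18. On the SSFA2 side, PPP1R1C came next at -0.65 (mean 0.96 CPM in ZEB1-KO clones and 1.51 CPM in WT clones). DNAJC10 and NCKAP1, the third and the fourth tested genes on that side, had 0.19 and -0.0076. The median over the 873 other tested genes on chromosome 2 was also -0.0076.

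The sequence upstream of UBE2E3 is shown because ZEB1 binds E-box-like elements, of which CAGGTG and CAGGTA are the common forms, and because this member had the largest difference with full separation of the clones. RefSeq lists 2 starts for the gene. The 250 bases before the first start, on the plus strand of GRCh38.p14 at chr2:180980110-180980359, hold 1 CAGGTA element (capitals), beginning 175 bases before the start.
UBE2E3: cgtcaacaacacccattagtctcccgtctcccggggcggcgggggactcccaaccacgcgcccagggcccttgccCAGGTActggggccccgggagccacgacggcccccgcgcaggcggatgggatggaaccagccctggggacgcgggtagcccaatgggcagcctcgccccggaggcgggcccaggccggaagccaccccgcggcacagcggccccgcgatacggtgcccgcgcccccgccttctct
Their GC content was 75.6%, and the window of the second start held neither element.

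Promoter windows of 300 bases, from 250 before to 50 after a start, were given by RefSeq for 27 of the 36 members, in 39 windows. UBE2C, UBE2H, UBE2B, UBE2Q1, UBE2V2, UBE2W, UBE2NL and UBE2MP1 were among those with none in that table. On either strand, CAGGTA occurred in 3 of 27 member genes, against 11.8% of 27305 genes, and CAGGTG in 5 of 27, against 24.1% of genes. The 2 motifs differ in their last base and no window of a member held both. The 3 genes with CAGGTA are set side by side, with 10 bases on each side where the window allows and the element in capitals, where TACCTG is the same element read on the other strand.
UBE2E3: ggcccttgccCAGGTActggggcccc
UBE2D1: agcagtaagtTACCTGgcagcgtccg
UBE2T: ggtgtcagctCAGGTAagcaa
The UBE2D1 element lies at chr10:58334845-58334870 on the plus strand, with its flanks, and that of UBE2T at chr1:202341887-202341907 on the minus strand. UBE2D1 had a log2 fold change of 0.48 and UBE2T one of -0.38, so the 3 genes that share the element had values of unlike sign. A match of 6 letters is a description of the window and is no evidence of binding.

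**Figure D3:**
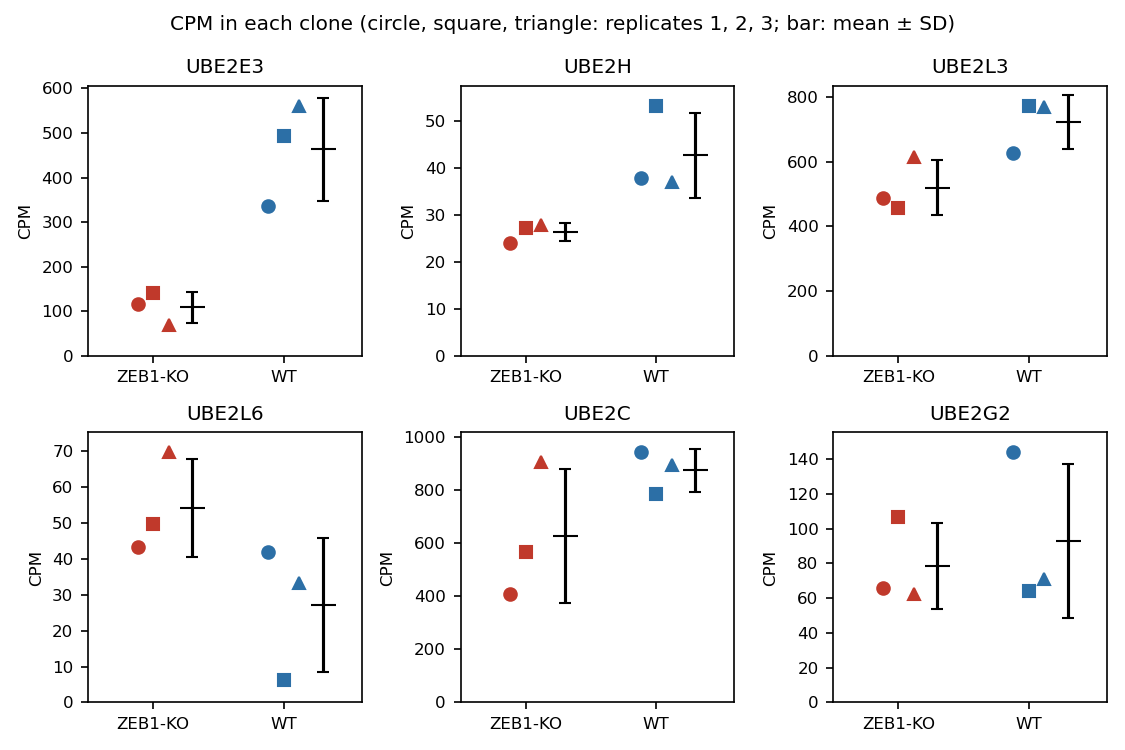
CPM of 6 UBE2 genes in each clone, ZEB1-KO on the left and WT on the right; symbols mark replicates 1, 2 and 3, and the bar gives the mean ± SD. UBE2E3, UBE2H, UBE2L3 and UBE2L6 show no overlap between groups, UBE2L6 because WT replicate 1 at 42.0 CPM lies just under the lowest ZEB1-KO value of 43.5 CPM, while UBE2C and UBE2G2 overlap.

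The remaining broad-specificity E2s had smaller differences than UBE2E3. UBE2L3, which serves HECT and RING-between-RING ligases, had 489, 456 and 615 CPM in ZEB1-KO replicates 1, 2 and 3, against 626, 772 and 768 CPM in WT replicates 1, 2 and 3. All 3 ZEB1-KO values in CPM lay below the lowest WT value, by a small margin, and the log2 fold change was -0.47 ± 0.21 (SE), adjusted p = 0.285. In TPM the groups of UBE2L3 overlapped, with 201, 213 and 258 TPM in the ZEB1-KO libraries, against 246, 254 and 272 TPM in the WT libraries. UBE2D3, the main member of the UBE2D group that primes chains with many ligases, had 408, 333 and 531 CPM in the ZEB1-KO libraries, against 355, 347 and 381 CPM in the WT libraries, at a log2 fold change of 0.23 ± 0.22 (SE) and adjusted p = 0.614. UBE2D3 supplied 53.8% to 60.5% of the UBE2D TPM in ZEB1-KO libraries and 54.1% to 61.9% in WT libraries, so the make-up of that group overlapped. The UBE2D sum did not overlap, at 205, 214 and 278 TPM in the ZEB1-KO libraries, against 181, 156 and 161 TPM in the WT libraries. UBE2D3 in TPM did not overlap either, at 124, 115 and 165 TPM in the ZEB1-KO libraries, against 103, 84.2 and 99.9 TPM in the WT libraries. In CPM its groups overlapped. On the TPM scale the median log2 fold change of all genes was itself 0.20 to 0.27, and the share of all genes separated there was not counted. UBE2D1, UBE2D2 and UBE2D4 had log2 fold changes of 0.48, 0.12 and -0.24, and their groups overlapped.

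Among E2s that carry ubiquitin-like proteins, 4 of 5 had a positive log2 fold change (5 of 5 by library size alone and on the TPM scale), with 0 past 0.05 in the quasi-likelihood test, 1 at an unadjusted p below 0.05 and 1 with DESeq2. Over all genes 49.4% lay above 0 in the quasi-likelihood fit, 17.7% had an unadjusted p below 0.05 in that test and DESeq2 called 7.24%. The median log2 fold change of all genes was itself 0.14 by library size alone and 0.20 to 0.27 on the TPM scale. UBE2L6, the E2 for the interferon-induced modifier ISG15, had 43.5, 49.7 and 69.7 CPM in ZEB1-KO replicates 1, 2 and 3, against 42.0, 6.17 and 33.3 CPM in WT replicates 1, 2 and 3. WT replicate 2 lay far below every other library, and the other WT clones also lay below the ZEB1-KO range. Its log2 fold change was 1.00 ± 0.58 (SE), with adjusted p = 0.400, and it was 0.54 without WT replicate 2. Values for genes of ISG15 conjugation and the interferon response are given beside it. Relative to the WT mean, the median of 8 tested genes on the log2 scale was 0.61, 1.26 and 1.02 in ZEB1-KO replicates 1, 2 and 3 and 1.04, -0.76 and -0.32 in WT replicates 1, 2 and 3. WT replicate 2 was thus the lowest library for both, and the part of this in the UBE2L6 difference was not tested.

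The NEDD8 pathway has a pair of E2s, UBE2M for most cullins and UBE2F for CUL5. UBE2M had 9.98, 20.6 and 7.47 CPM in the ZEB1-KO libraries, against 8.02, 7.77 and 6.68 CPM in the WT libraries, at a log2 fold change of 0.76 ± 0.39 (SE) and adjusted p = 0.339. ZEB1-KO replicate 2 alone stood apart, and the log2 value was 0.22 on leaving it out. UBE2F had 47.7, 31.5 and 59.8 CPM in the ZEB1-KO libraries, against 37.8, 36.8 and 41.0 CPM in the WT libraries, at a log2 fold change of 0.27 ± 0.26 (SE) and adjusted p = 0.623. UBE2Z is outside that NEDD8 pair. It was listed with the E2s of ubiquitin-like proteins and also takes ubiquitin, from the second E1 UBA6. UBE2Z had 45.0, 59.4 and 36.7 CPM in the ZEB1-KO libraries, against 46.0, 56.4 and 47.3 CPM in the WT libraries, at a log2 fold change of -0.09 ± 0.24 (SE) and adjusted p = 0.875. The groups of UBE2M, UBE2F and UBE2Z overlapped.

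The E2s of the anaphase-promoting complex, the mitotic ligase APC/C, showed spread among ZEB1-KO clones. UBE2C starts chains on APC/C substrates and UBE2S extends them. UBE2C had 410.0, 567 and 906 CPM in ZEB1-KO replicates 1, 2 and 3, against 943, 787 and 896 CPM in WT replicates 1, 2 and 3. UBE2S had 41.4, 104 and 114 CPM in the ZEB1-KO libraries, against 105, 70.3 and 108 CPM in the WT libraries. In ZEB1-KO replicate 1 both were below all other libraries, whereas replicate 3 lay within or above the WT range for each. The log2 fold change of UBE2C was -0.48 ± 0.29 (SE), with adjusted p = 0.429, and that of UBE2S was -0.12, adjusted p = 0.890. The 95% interval for UBE2C ran from -1.15 to 0.20 on the log2 scale, so a more than 2-fold lower level was not outside it. Mitotic genes showed the same order of ZEB1-KO clones. Their median over 22 genes on the log2 scale, relative to the WT mean, was -0.35, 0.13 and 0.54 in replicates 1, 2 and 3, against -0.098, -0.12 and 0.086 in the WT replicates. In the quasi-likelihood fit 14 of these 22 genes had log2 fold changes above 0, where 49.4% of all genes did. Their median log2 fold change was 0.16, opposite in sign to that of UBE2C. The part of the mitotic genes' order in the UBE2C difference was not tested.

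**Figure D4:**
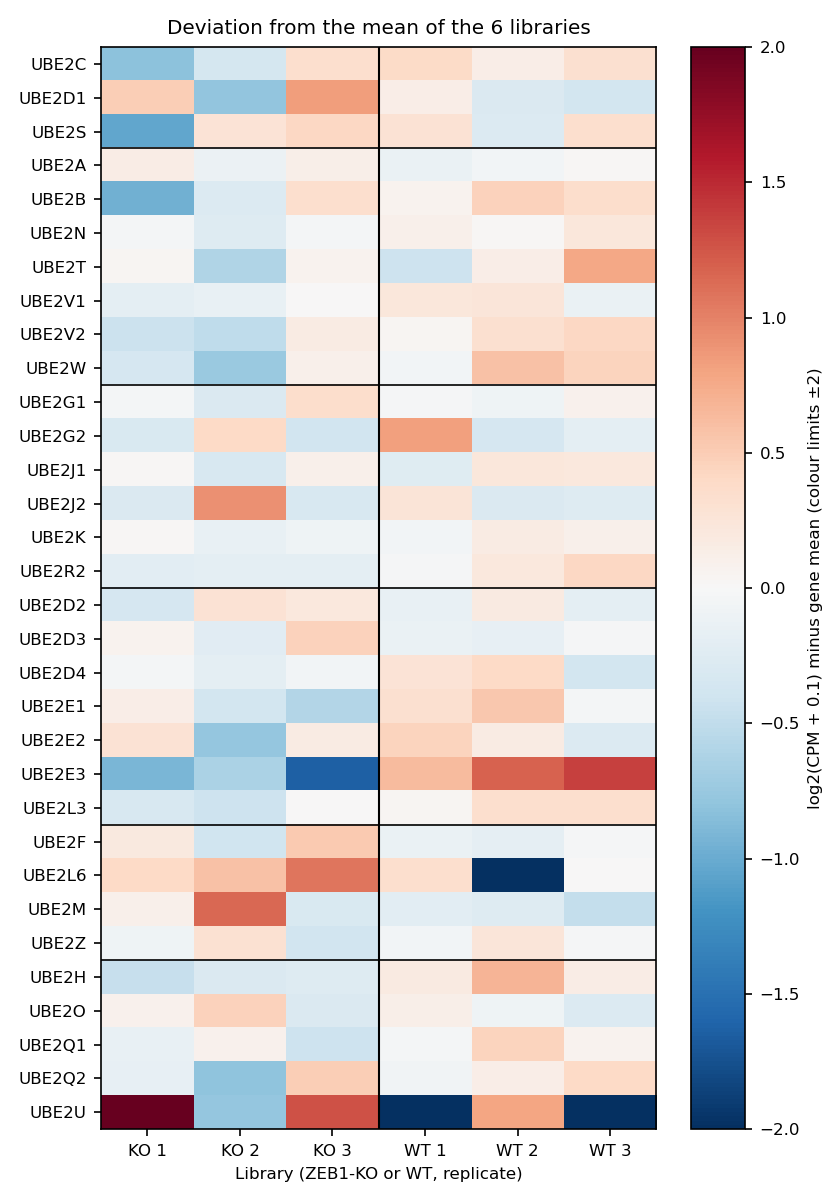
Deviation of log2(CPM + 0.1) from each gene's mean over the 6 libraries, for the UBE2 genes described, in role order, ZEB1-KO libraries left of the line and WT libraries right of it; colours stop at ±2. UBE2E3 is low in all 3 ZEB1-KO columns, UBE2C, UBE2S and UBE2B are lowest in ZEB1-KO replicate 1, and UBE2L6 is lowest in WT replicate 2.

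Of 7 tested E2s of DNA damage signalling 6 had log2 fold changes below 0 (4 of 7 on the TPM scale), with 0 past 0.05 in the quasi-likelihood test, 0 at an unadjusted p below 0.05 and 0 with DESeq2. Over all genes 50.6% lay below 0, 17.7% had an unadjusted p below 0.05 in the quasi-likelihood test and DESeq2 called 7.24%. UBE2T, the E2 of the Fanconi anaemia pathway, had 142, 90.4 and 145 CPM in the ZEB1-KO libraries, against 103, 152 and 234 CPM in the WT libraries, at a log2 fold change of -0.38 ± 0.33 (SE) and adjusted p = 0.582. UBE2A and UBE2B, a pair of close RAD6 homologues that modify PCNA with RAD18, are given next to each other. UBE2A had 189, 156 and 185 CPM in the ZEB1-KO libraries, against 154, 164 and 173 CPM in the WT libraries, at a log2 fold change of 0.11 ± 0.19 (SE) and adjusted p = 0.793. On the TPM scale its groups did not overlap, with 163, 154 and 163 TPM in the ZEB1-KO libraries, against 127, 113 and 129 TPM in the WT libraries. The median log2 fold change of all genes on that scale was itself 0.20 to 0.27. UBE2B had 55.6, 89.1 and 137 CPM in the ZEB1-KO libraries, against 113, 149 and 138 CPM in the WT libraries, at a log2 fold change of -0.51 ± 0.32 (SE) and adjusted p = 0.443. The ZEB1-KO clones were thus spread 2.46-fold for UBE2B and 1.21-fold for UBE2A. UBE2B lies on chromosome 5, where the median of all 613 tested genes on the log2 scale, relative to the mean of the 6 libraries, was -0.28, -0.031 and 0.22 in ZEB1-KO replicates 1, 2 and 3, against 0.079, 0.12 and -0.082 in the WT replicates. That order of ZEB1-KO clones is the order seen for UBE2B, and its part in the spread was not tested. UBE2D2, also on chromosome 5, had 79.6, 124 and 117 CPM in ZEB1-KO replicates 1, 2 and 3, which is another order.

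UBE2N builds signalling chains together with UBE2V1 or UBE2V2, variants that lack the active-site cysteine. UBE2N had 255, 219.5 and 256 CPM in the ZEB1-KO libraries, against 283, 266 and 307 CPM in the WT libraries, at a log2 fold change of -0.23 ± 0.18 (SE) and adjusted p = 0.548. The groups did not overlap in CPM, yet they did in TPM, where the log2 fold change was positive (0.043). UBE2V2 had 217, 206 and 329 CPM in the ZEB1-KO libraries, against 301, 365 and 393 CPM in the WT libraries, at a log2 fold change of -0.49 ± 0.24 (SE) and adjusted p = 0.326. In TPM the ratio of UBE2V2 to UBE2N was 1.42, 1.57 and 2.16 in the ZEB1-KO libraries, against 1.78, 2.30 and 2.14 in the WT libraries. UBE2V1 was scarce, with 8.73, 9.07 and 10.1 CPM in the ZEB1-KO libraries, against 11.7, 11.8 and 9.12 CPM in the WT libraries, at a log2 fold change of -0.23 ± 0.24 (SE) and adjusted p = 0.658. Its level is uncertain, since 81.2% of the 50-base stretches of its longest coding transcript also occur in TMEM189-UBE2V1, a readthrough gene listed with 0 counts in every library. UBE2W, which attaches ubiquitin to protein N-termini, had 39.8, 30.1 and 54.2 CPM in the ZEB1-KO libraries, against 48.4, 75.2 and 68.4 CPM in the WT libraries, at a log2 fold change of -0.63 ± 0.28 (SE) and adjusted p = 0.288. UBE2W and UBE2V2 lie on chromosome 8, whose 434 other tested genes had a median log2 fold change of -0.073.

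Of 6 E2s of the endoplasmic reticulum and of degradation chains 4 had log2 fold changes below 0, but 2 by library size alone and 1 on the TPM scale, and 0 passed 0.05 (0 at an unadjusted p below 0.05, 0 with DESeq2). Shares over all genes were 50.6% below 0, 17.7% at an unadjusted p below 0.05 in the quasi-likelihood test and 7.24% with DESeq2. UBE2J1, anchored in the membrane of the endoplasmic reticulum, had 72.4, 57.1 and 75.9 CPM in the ZEB1-KO libraries, against 59.7, 82.7 and 82.6 CPM in the WT libraries, at a log2 fold change of -0.13 ± 0.22 (SE) and adjusted p = 0.792. UBE2K, a builder of degradation chains, was the steadiest of them in CPM, with 94.5, 83.8 and 87.6 CPM in the ZEB1-KO libraries, against 89.6, 105 and 99.9 CPM in the WT libraries, at a log2 fold change of -0.15 ± 0.18 (SE) and adjusted p = 0.710. In TPM all ZEB1-KO values of UBE2K lay above the WT range, at 29.3, 29.5 and 27.7 TPM, against 26.5, 25.9 and 26.7 TPM. The median log2 fold change of all genes on that scale was itself 0.20 to 0.27. UBE2R2, a paralog of the cullin-linked E2 CDC34, had 31.8, 32.0 and 31.9 CPM in the ZEB1-KO libraries, against 36.0, 42.6 and 48.6 CPM in the WT libraries, at a log2 fold change of -0.41 ± 0.20 (SE) and adjusted p = 0.328. The 3 ZEB1-KO values of UBE2R2 in CPM were nearly equal and all lay below the WT range, but in TPM the groups overlapped, with 11.6, 13.2 and 11.9 TPM in the ZEB1-KO libraries, against 12.5, 12.4 and 15.3 TPM in the WT libraries. UBE2G2, an E2 of protein degradation at the endoplasmic reticulum, had 66.0, 107 and 62.2 CPM in ZEB1-KO replicates 1, 2 and 3, against 144, 64.1 and 71.1 CPM in WT replicates 1, 2 and 3. WT replicate 1 was the highest library and ZEB1-KO replicate 2 the next, and the groups overlapped. The log2 fold change was -0.25, adjusted p = 0.753, and without WT replicate 1 it was 0.23. UBE2G2 lies on chromosome 21, where the median of 134 tested genes on the log2 scale, relative to the mean of the 6 libraries, was -0.14, -0.14 and -0.18 in ZEB1-KO replicates 1, 2 and 3, against 0.58, -0.16 and 0.014 in WT replicates 1, 2 and 3. WT replicate 1 was thus the high library for the chromosome as well as for UBE2G2, and the part of the one in the other was not tested.

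Of the members with other or less studied roles, UBE2H had the smallest unadjusted p. UBE2H, the E2 of the CTLH ligase complex, had 24.0, 27.2 and 27.7 CPM in ZEB1-KO replicates 1, 2 and 3, against 37.8, 53.1 and 36.9 CPM in WT replicates 1, 2 and 3. All ZEB1-KO clones lay below all WT clones. The log2 fold change was -0.69 ± 0.23 (SE), with adjusted p = 0.174, a 1.62-fold lower level, with adjusted p-values from 0.109 to 0.434 over 18 alternatives. UBE2U had 219, 15 and 59 counts in ZEB1-KO replicates 1, 2 and 3, against 4, 42 and 0 counts in WT replicates 1, 2 and 3, the lowest level of the tested members. ZEB1-KO replicate 1 held most of its counts, and a WT library with 0 counts stood beside one with 42. The log2 fold change of 3.21 carried an SE of 1.47, with adjusted p = 0.301, and it was 1.23 without ZEB1-KO replicate 1 and 6.20 without WT replicate 2, so 1 library decides its size. The other 9 tested members, UBE2D1, UBE2D2, UBE2D4, UBE2E2, UBE2G1, UBE2J2, UBE2O, UBE2Q1 and UBE2Q2, had log2 fold changes from -0.32 to 0.48 and adjusted p-values from 0.504 to 0.947.

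Variation among clones of 1 genotype was also compared with that of all genes. Among ZEB1-KO clones, 10 of 33 members differed by more than 2-fold between the highest and the lowest clone, against 32.0% of all genes tested. Among WT clones 4 members did, UBE2L6, UBE2T, UBE2G2 and UBE2U, against 25.9% of all genes. Relative to all genes, the members were as variable among ZEB1-KO clones (median SD of log2 CPM 0.371 and 0.372) and less so among WT clones (0.236 and 0.320), though the members are also more abundant, with a median of 48.5 CPM against 11.7 CPM for all genes. ZEB1-KO replicate 2 held the lowest value of 13 members and WT replicate 2 the highest value of 10.

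The rest of the pathway was described from 12 lists of partner genes, 165 genes of which 160 were tested. In the quasi-likelihood test 0 passed 0.05, while at an unadjusted p below 0.05 there were 22 higher genes (13.8%, against 9.64% of all genes) and 12 lower genes (7.5%, against 8.04%). The likelihood ratio test called 3 (1.88%, against 4.52% of all genes) and DESeq2 called 7 (4.38%, against 7.24%), both smaller shares than over all genes. Their median log2 fold change was 0.029, beside -0.0082 over all genes. The 3 genes passing the likelihood ratio test were RNF4, PLK1 and HERC6. RNF4, a ubiquitin ligase that recognises SUMO chains, averaged 65.3 ± 5.50 CPM in ZEB1-KO clones and 29.9 ± 3.42 CPM in WT clones (SD, n = 3 each), at a log2 fold change of 1.13 ± 0.20 (SE) and adjusted p = 0.0826. PLK1, a mitotic kinase, had a log2 fold change of 1.99, adjusted p = 0.0885. HERC6, an interferon-induced ligase, had 1.73, adjusted p = 0.144. These 3 belong to the lists of ligases that pair with broad E2s (0 of 17 passed the quasi-likelihood test, 3 at an unadjusted p below 0.05, 2 with DESeq2), of mitotic genes (0 of 22, 4 and 1) and of ISG15 and interferon genes (0 of 8, 2 and 2).

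Among genes upstream of the E2s, 0 of 9 tested E1 genes and subunits passed in the quasi-likelihood test (3 at an unadjusted p below 0.05, 0 with DESeq2). Beside these and the next lists, 17.7% of all genes had an unadjusted p below 0.05 in that test. DESeq2 called 7.24% of genes, and 50.6% lay below 0 in the quasi-likelihood fit. UBA1, the main ubiquitin E1, averaged 356 ± 87.9 CPM in ZEB1-KO clones and 195 ± 65.7 CPM in WT clones (SD, n = 3 each), adjusted p = 0.183. All 8 E2 or E2-variant genes with other names had log2 fold changes below 0 (median -0.23), but 4 of 8 did by library size alone and 4 of 8 on the TPM scale, with 0 past 0.05, 0 at an unadjusted p below 0.05 and 0 with DESeq2. Of 14 ubiquitin and ubiquitin-like genes 0 passed, 5 were at an unadjusted p below 0.05 (2 higher and 3 lower) and DESeq2 called 1. That gene was NEDD8, with 316 ± 20.6 CPM in ZEB1-KO clones and 523 ± 38.9 CPM in WT clones (SD, n = 3 each) and a log2 fold change of -0.73 (adjusted p = 0.115). The ubiquitin gene UBB had a log2 fold change of -0.75.

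Among genes downstream, 0 of 12 cullin scaffold and NEDD8-related genes passed (3 at an unadjusted p below 0.05, all lower, 0 with DESeq2), namely CUL5, RBX1 and SKP1 with log2 fold changes of -0.65, -0.74 and -0.66. Of 18 tested APC/C genes 0 passed, and 5 were at an unadjusted p below 0.05, 3 higher and 2 lower. For all lists here, the shares over all genes were 17.7% at an unadjusted p below 0.05 in the quasi-likelihood test and 7.24% with DESeq2. The subunits ANAPC7 and ANAPC5 had log2 fold changes of 0.64 and 0.56, and ANAPC11, the RING subunit and the 1 gene called by DESeq2, had -0.82. Of 12 SUMO ligases and proteases 0 passed, and 3 were at an unadjusted p below 0.05, all higher, SENP1, SENP2 and TRIM28 at 0.64, 0.62 and 0.97, with 0 by DESeq2. Of 14 S-phase genes 12 had log2 fold changes above 0 (list median 0.36; 13 by library size alone and 14 on the TPM scale), and 0 passed (3 at an unadjusted p below 0.05, 0 with DESeq2). Over all genes 49.4% lay above 0 in the quasi-likelihood fit. The median of all genes was itself 0.14 by library size alone and 0.20 to 0.27 on the TPM scale. The Fanconi list (0 of 15, 1 at an unadjusted p below 0.05, 0 with DESeq2) and the endoplasmic reticulum list (0 of 12, 2 at an unadjusted p below 0.05, 0 with DESeq2) had medians of 0.17 and 0.046.

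**Figure D5:**
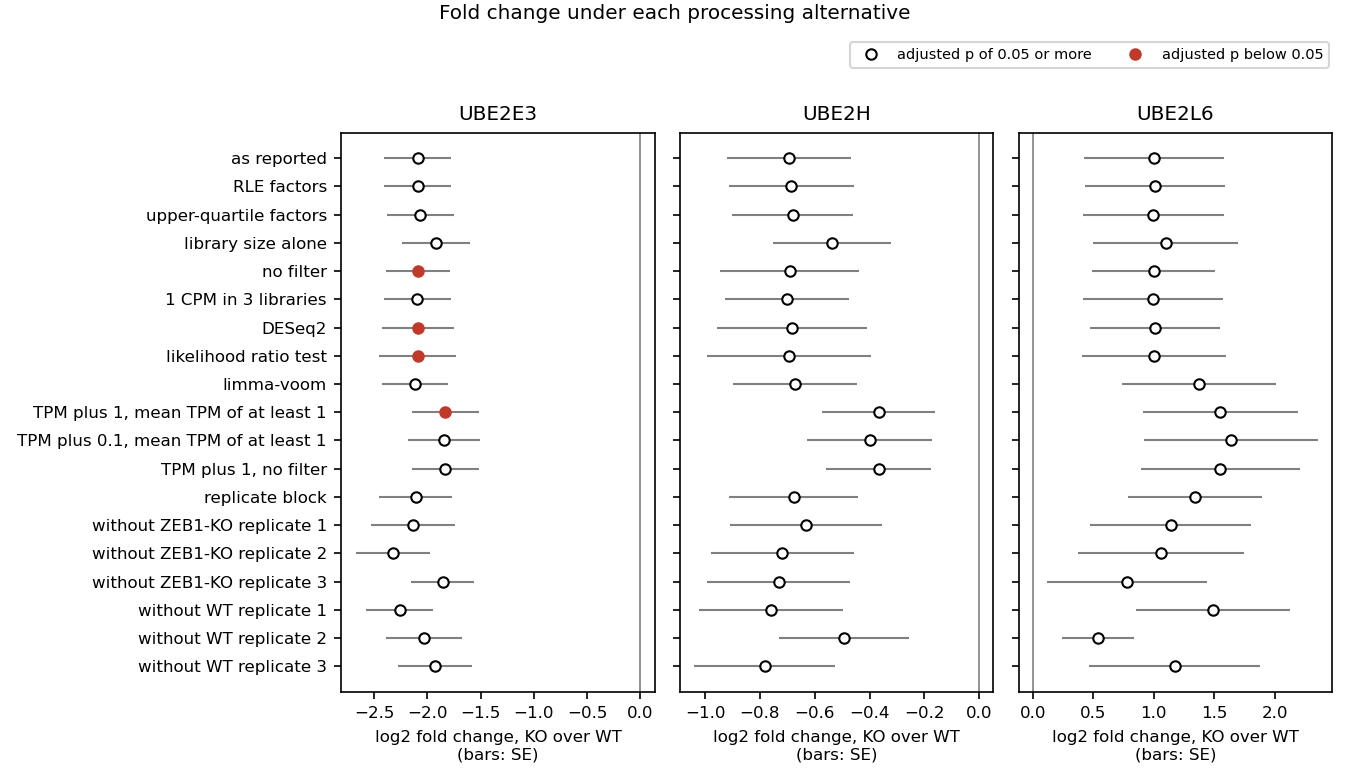
Log2 fold change of ZEB1-KO over WT for UBE2E3, UBE2H and UBE2L6 under the reported fit and 18 alternatives, with the SE as bars; filled points have an adjusted p below 0.05. UBE2E3 stays between -2.32 and -1.83 and UBE2H between -0.78 and -0.37, while UBE2L6 ranges from 0.54 without WT replicate 2 to 1.64.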

How the data were processed

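RNA from 3 ZEB1-KO and 3 WT clones of MiaPaCa2 was measured, 1 library each, grouped by the sample titles; nothing in the labels gives culture days or library batches. Deposited by the authors were a table of raw counts, TPM values for 11013 genes scaled to the same total per library, and a results table with log2 fold changes, likelihood ratio scores and p-values, per the file headers. The tools named are HTSeq 0.6.1, edgeR 3.2.2 and TopHat2 2.1.0 and the builds hg19 and GRCh37, per the submitters' processing notes, with no settings. The deposited log2 fold change runs ZEB1-KO over WT (correlation with the fit made here 1.00 across 11010 genes, which are not independent replicates).

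From the deposited counts, R 4.3.3 and edgeR 4.0.16 were run with filterByExpr (minimum count 10, total 15; 13659 genes kept), TMM factors, group alone, glmQLFit and glmQLFTest, two-sided, Benjamini-Hochberg over all genes, threshold 0.05. SEs came from the F statistic, and 95% intervals from the t distribution with 4 residual and 4.35 prior degrees of freedom. DESeq2 1.42.0 and limma 3.58.1 gave alternatives. Tests were tried on simulated data. An exact permutation test of 3 against 3 cannot go below p = 0.1. The members, their role groups, the 12 partner lists and the naming rule (members in full: those past 0.05, the 10 smallest p-values and a set chosen by role) were chosen with earlier results of these data known. Of partner lists, calls and up to 3 genes of smallest p could be named. Values of 1 member, and of some partner genes, are not reported here, while counts over the members include it. Replicate numbers did not pair the samples. Promoter windows are RefSeq's on GRCh38.p14, not the build of the counts, and chromosomes come from RefSeq symbols (13375 of 13659 genes matched). SMART-Seq2 does not record strand, so antisense reads cannot be separated. Sequence shared with other genes was measured in GENCODE transcripts as 50-base stretches: 25.5% for UBE2F, 17.5% for UBE2S, 10.7% for UBE2M, 10.2% for UBE2E3, under 10% for other members except UBE2V1.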

Additional observations from a re-analysis of the deposited data

How the results depend on the processing

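Over 33 members and 18 alternatives, 6 of 594 values passed 0.05, 0 reversed a call, 20 uncalled values changed sign by more than the SE, and the other 568 kept their side of the threshold, some with a sign change within the SE. UBE2 members called, 0 as reported, became 1 without a filter (UBE2E3), 2 with DESeq2 and 2 with the likelihood ratio test (UBE2E3 in both), 1 on log2(TPM + 1) at a mean TPM of at least 1 (UBE2E3) and 1 at an adjusted p below 0.1 (UBE2E3), a limit chosen after seeing the data; it was 0 to 0 when 1 library was left out. Partner genes called, 0 as reported, became 1 without a filter, 7 with DESeq2, 3 with the likelihood ratio test, and 1 on log2(TPM + 1) with and 1 without a filter. All genes called, 24 as reported, were 134 without a filter, 942 with DESeq2, 617 with the likelihood ratio test, 104, 89 and 93 on the TPM scales (plus 1, plus 0.1, plus 1 unfiltered; 85, 76 and 77 of them higher in ZEB1-KO clones, against 16 of 24 as reported), 245 at an adjusted p below 0.1, and 5 to 25 with 1 library left out: 6 without ZEB1-KO replicate 1, 13, 6 and 5 without WT replicate 1, 2 and 3. The cause was not tested. The median log2 fold change of members, -0.18 as reported and -0.21 to -0.12 with 1 library left out, was -0.054 (16 of 33 members above 0, against 12 as reported) with library size alone and 0.052, 0.069 and 0.052 (21 of 33 in each) on the TPM scales. Those scalings moved the median of all genes to 0.14, 0.23, 0.27 and 0.20; relative to it the members' median was -0.19, -0.18, -0.20 and -0.15, against -0.17 as reported. On the TPM scale 9 members changed sign, UBE2D4, UBE2E2, UBE2G2, UBE2J1, UBE2K, UBE2N, UBE2S, UBE2V1 and UBE2Z, none of them called. With the replicate number as a block 20 genes and 0 members were called, the members' median was -0.20 and UBE2E3 had an adjusted p of 0.0877; the numbers did not pair the samples (correlations of deviations 0.022, 0.0071 and 0.22, with 1 of 3 ZEB1-KO clones closest to its own number). Leaving out 1 library changed the sign of 8 members, UBE2E2, UBE2G1, UBE2G2, UBE2J2, UBE2O, UBE2Q2, UBE2S and UBE2Z. Depth limits UBE2NL, UBE2MP1 and UBE2QL1, which lie at or near the floor in every library, and UBE2U, at or near it in WT replicates 1 and 3.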
